A study of Arabidopsis thaliana with 8 samples.

Results

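Leaves of wild-type Arabidopsis thaliana that had been through heat and then recovered were compared with leaves of mock-treated plants by RNA sequencing. The comparison uses 4 of the 8 libraries of the series: 2 from mock leaves and 2 from heat-treated leaves of the Col-0 accession. Plants were grown in soil at 22 °C to an age of 3 weeks. They were then held at 42 °C for 5 h, followed by 3 days of recovery, or were left as mock plants. Rosette leaves 3 and 4 were taken, and the libraries are numbered as biological replicates 1 and 2 in each group. The other 4 libraries come from the pif4-2 pif5-3 double mutant under the same treatments, and enter here through the filter on low values, the shared estimate of spread and comparisons with the wild-type change. A recovery time is recorded for the heat group alone, so an equal leaf age at harvest was not checked. Of 34354 rows in the deposited table, 16831 reached at least 1 FPKM in at least 2 of the 8 libraries and were tested. FPKM are fragments per kilobase of transcript, scaled to a library's mapped reads.

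When a leaf is heated, proteins unfold, and heat shock transcription factors switch on genes for chaperones that bind and refold them. Most of these transcripts are known to fall again within hours of the return to normal temperature, while some stay high for days and are studied as heat memory. A damaged leaf can also run programmes for defence against microbes, for the synthesis of protective compounds such as anthocyanins, and for the recovery of nutrients from ageing cells, while growth slows. The measurements below describe which of these gene groups differed 3 days after the heat.

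The depth recovered from the FPKM steps was 25047013 and 24989474 reads in the mock libraries and 21352475 and 17620695 reads in the heat libraries. Among 11102 genes with at least 5 FPKM in all 4 wild-type libraries, the replicates differed by a median of 0.0781 (mock) and 0.0654 (heat) on the log2(FPKM + 1) scale, and 1 gene in each pair differed at least 2-fold. The mock replicates stood apart in long genes. In the 113 tested genes longer than 6000 bp, mock replicate 1 was below replicate 2 by a median of -0.29, whereas heat replicate 1 was above replicate 2 by 0.0510. The median change after heat in these long genes was 0.163, and was -0.00955 without mock replicate 1 and 0.285 without mock replicate 2. In genes of 1000 to 2000 bp the corresponding median was 0.0186. The part of RNA quality in this was not tested. Genes of photosynthesis that mark leaf tissue were abundant, RBCS1A at 6789 and 6691 FPKM in mock and 8091 and 8596 FPKM after heat and CAB3 at 4095 and 3865 FPKM in mock and 3074 and 3202 FPKM after heat.

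The response was broad but mostly small, and its large changes were rises. In 6468 of 16831 tested genes, or 38.4%, the wild-type groups differed at a Benjamini-Hochberg adjusted p below 0.05 by limma, which is the threshold for a gene called higher or lower throughout. Of these, 3626 were higher (21.5% of genes tested) and 2842 were lower (16.9%). In 11597 of the 16831 tested genes (68.9%), called or not, the mock and heat libraries of the wild type did not overlap. The higher share of the calls was 56.1% with FPKM as deposited and 42.9% with quantile scaling. The median size of a called change was 0.416 in log2(FPKM + 1), where the added 1 makes the changes of genes with few fragments look smaller than they are. A change of at least 2-fold on that scale was called up in 661 genes (3.93%) and down in 155 genes (0.921%), 4.85% in all, and a change of at least 4-fold up in 172 genes (1.02%) and down in 4 genes (0.0238%). The 155 genes that fell at least 2-fold held 1.01% and 0.972% of all FPKM in mock and 0.401% and 0.386% after heat. The 661 genes that rose at least 2-fold held 0.653% and 0.703% in mock and 2.84% and 2.85% after heat.

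**Figure D1:**
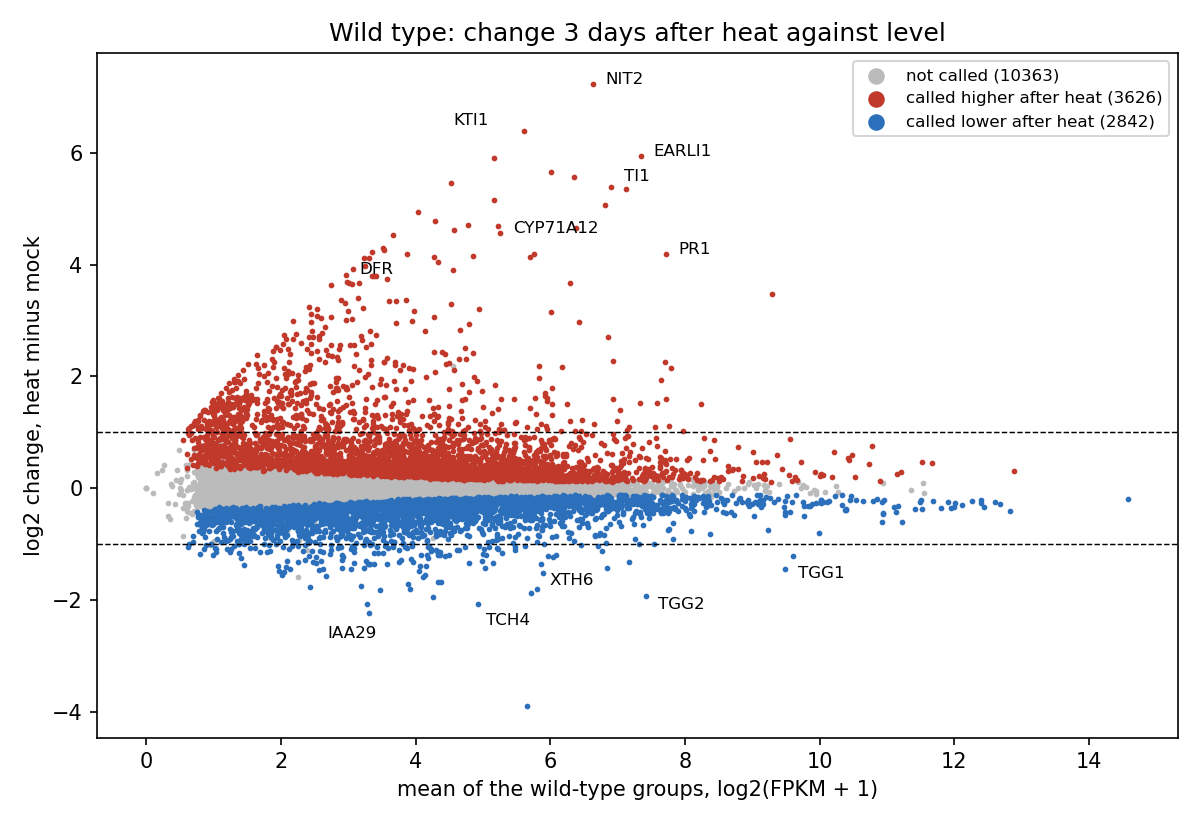
Each point is 1 of the 16831 tested genes, with the mean of the wild-type group means as log2(FPKM + 1) on the x axis and the log2 change, heat minus mock, on the y axis. Genes called higher are red and genes called lower blue, and dashed lines mark a 2-fold change; 661 called genes lie above the upper line and 155 below the lower line.

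Calls are given by the level in mock leaves as a description, with no test. The mock level is itself a term of the change, genes low in mock could pass the filter through other libraries where they were higher, and on this scale low genes have little room to fall, so the split sets part of the pattern. Of 5084 genes below 5 FPKM in mock, 23.9% were called higher and 9.44% lower, and 501 of the 661 genes that rose at least 2-fold were in this class. Of the 896 genes at 100 FPKM or more, 22.3% were called higher and 46.8% lower, and their median change was -0.10 on the log2 scale, against 0.0200 over all genes.

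**Figure D2:**
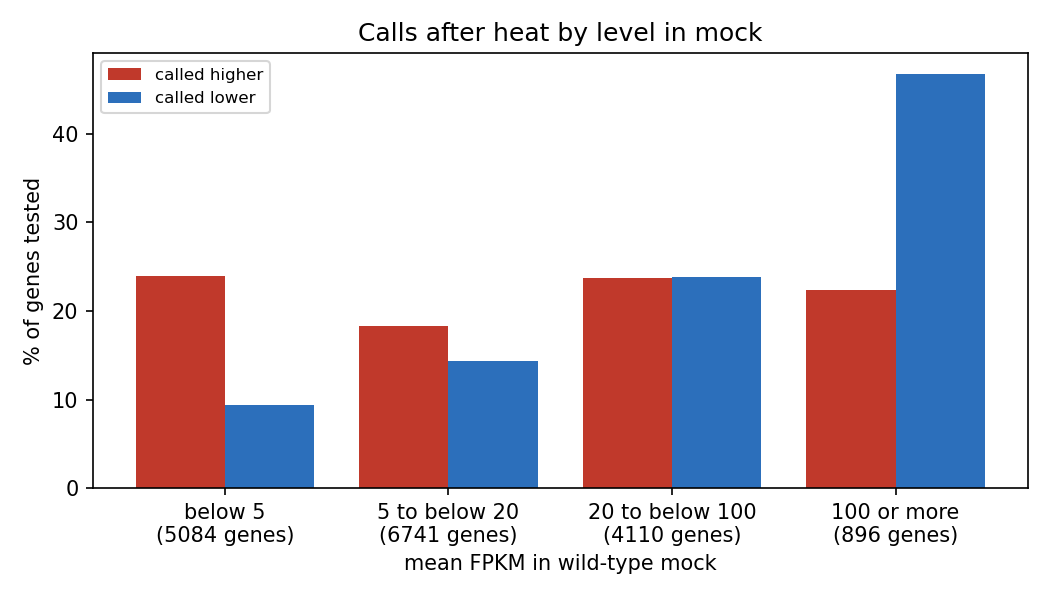
Bars give the percentage of tested genes called higher (red) or lower (blue) after heat in 4 classes of the mean FPKM in wild-type mock. The lower share goes from 9.44% in the lowest class to 46.8% in the highest, a pattern that the split by mock level partly sets.

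The largest rises included genes for enzymes and small secreted proteins, some near silence and others at a few FPKM in mock leaves. NIT2, a nitrilase gene, had 0.338 and 0.287 FPKM in the mock libraries, from 13 and 11 reads, and 177 and 216 FPKM after heat, from 5795 and 5831 reads (log2 change 7.22 ± 0.12 SE, adjusted p = 1.2e-12). Both heat libraries lay far above both mock libraries. Its neighbour NIT1, the most abundant nitrilase gene of these leaves, was at 604 and 581 FPKM in mock and 641 and 648 FPKM after heat (0.12 ± 0.04, adjusted p = 0.023), a small rise whose call was lost without mock replicate 2 (adjusted p = 0.11), heat replicate 1 (0.082) or heat replicate 2 (0.12), and with median-of-ratios scaling (0.060). NIT3 went from 3.29 and 2.74 FPKM to 4.41 and 3.10 FPKM and did not pass (adjusted p = 0.26). The 3 genes are closely related in sequence, and reads that fit several of them are uncertain in all.

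KTI1, which encodes a Kunitz-type protease inhibitor, was at 0.236 and 0.0675 FPKM in mock and at 90.0 and 100.5 FPKM after heat (6.39 ± 0.17, adjusted p = 4.8e-11). EARLI1, a gene for a lipid-transfer-like cell wall protein, went from 4.04 and 4.39 to 334 and 304 FPKM (5.94 ± 0.09, adjusted p = 4.3e-13). The extensin gene EXT4 went from 4.48 and 6.79 to 218 FPKM in both heat libraries (5.07 ± 0.13, adjusted p = 4.4e-11). In each of these genes the heat libraries were close to each other and far above mock. Among genes above 30 FPKM in mock, the peroxidase gene PRXCB (AT3G49120), chosen after its values were seen, had the largest rise, from 99.8 and 107 to 1153 and 1147 FPKM (3.47 ± 0.04, adjusted p = 1.6e-13).

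On the falling side the largest change was that of AT3G16670, described as a pollen Ole e 1 allergen and extensin family protein and also chosen after its values were seen. It was at 103 and 84.1 FPKM in mock and 6.67 and 4.21 FPKM after heat (-3.90 ± 0.14, adjusted p = 9.9e-10). The other 3 genes that fell at least 4-fold were the Aux/IAA repressor gene IAA29, the xyloglucan endotransglucosylase gene TCH4 and PHI-1, a gene of the EXORDIUM family. PHI-1 went from 14.9 and 14.4 to 2.504 and 2.99 FPKM (-2.06 ± 0.12, adjusted p = 5.1e-08). No library of one group overlapped the other in these genes, as was so in 68.9% of tested genes.

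Transcripts near silence in mock leaves and present after heat were looked for with limits on the level, not with a test. In 45 genes both mock libraries were below 0.5 FPKM and both heat libraries at 5 FPKM or more, and 0 genes showed the opposite pattern. With limits of 0.1 and 2 FPKM the numbers were 21 and 0. The 8 highest were NIT2, KTI1, ELI3-2, UPI, LTP3, LTP4, AT1G53540 and TH8. ELI3-2, of the cinnamyl alcohol dehydrogenase family, was at 0.189 and 0.190 FPKM in mock and 67.3 and 72.5 FPKM after heat. UPI, a protease inhibitor gene, was at 0 and 0.0588 FPKM in mock and 42.0 and 46.0 FPKM after heat. LTP4, a lipid transfer protein gene, had 0 reads in both mock libraries and 22.3 and 39.6 FPKM after heat, at least 429-fold higher against a floor of 3 reads over both mock libraries. Its heat replicates differed more than those of the other genes named here. TH8, a thioredoxin gene, went from 0.250 and 0.0502 to 20.3 and 21.4 FPKM.

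**Figure D3:**
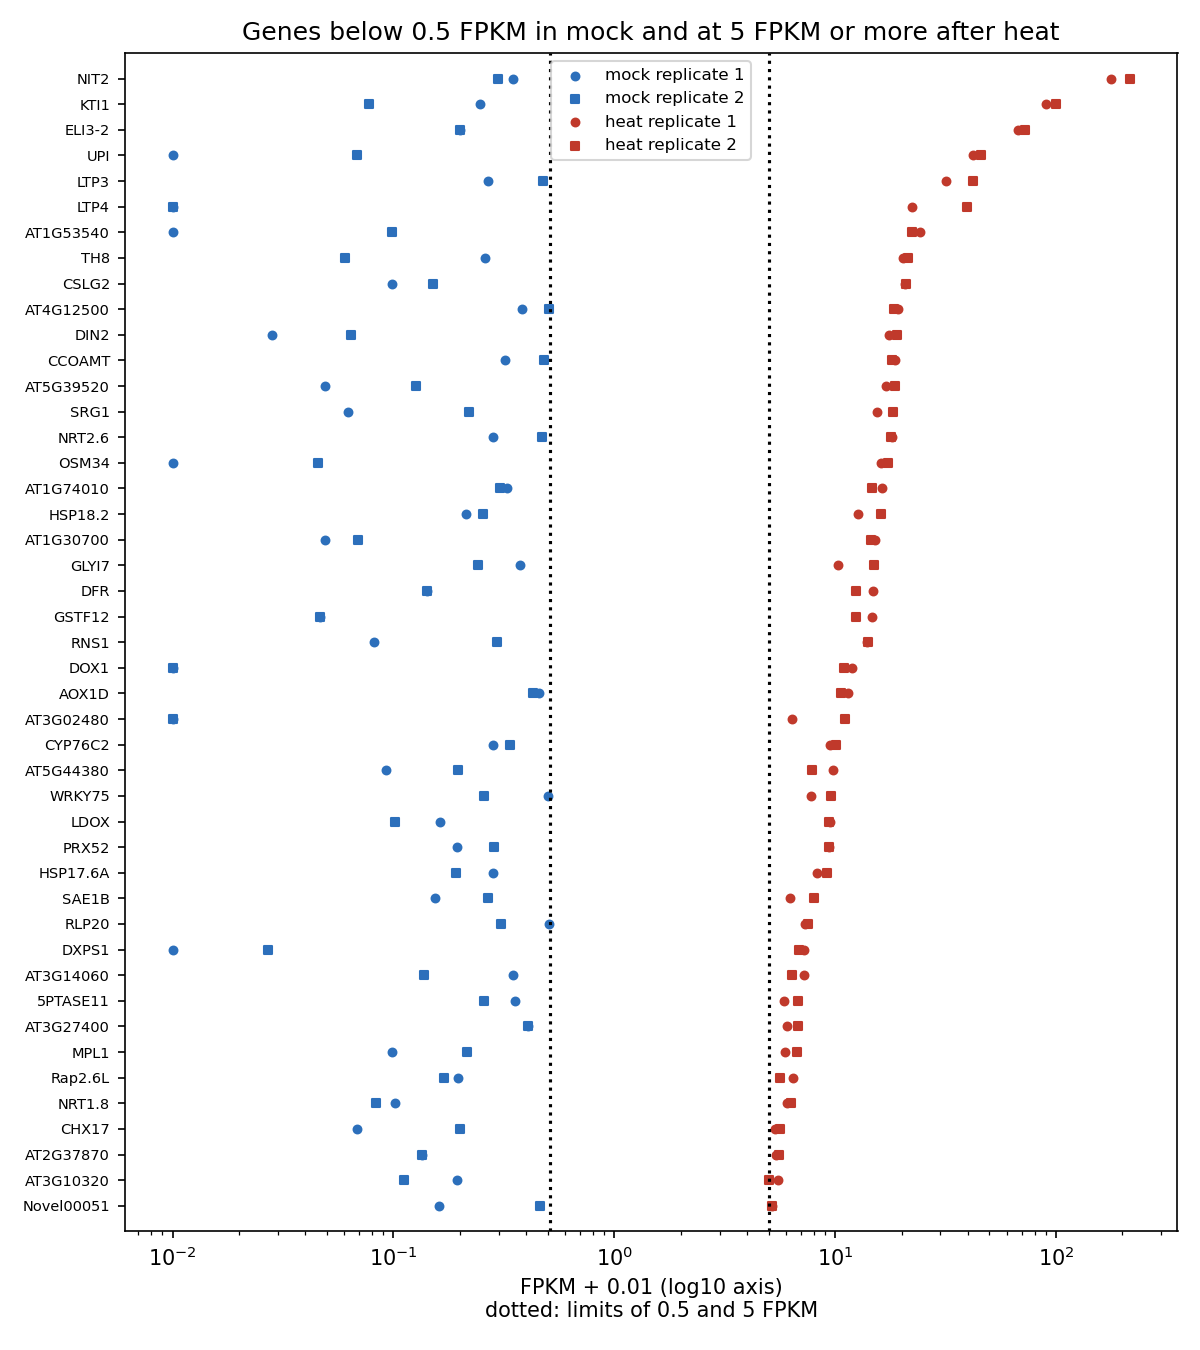
FPKM + 0.01 on a log10 axis in each wild-type library for the 45 genes below 0.5 FPKM in mock (blue) and at 5 FPKM or more after heat (red); circles are replicate 1 and squares replicate 2. Dotted lines mark the limits, and NIT2 is the highest at 177 and 216 FPKM.

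Part of the heat shock genes were higher at 3 days than in mock, the small heat shock proteins by the largest margin. No earlier time after the heat was sampled. Lists of genes were compared with the shares over all genes (21.5% higher, 16.9% lower, median log2 change 0.0200). Members below the filter are not counted, and a member that passed through the heat libraries alone had to be higher, so the counts describe the lists and are no test of them. With no filter on low values the median fell from 0.353 to 0.0800 for NAC genes and from 0.758 to 0.178 for early flavonoid genes. Small heat shock proteins hold unfolded proteins in a state that can be refolded. Of 7 cytosolic members 6 were measured, and those 6 were called higher (median 3.11); HSP17.4 was listed at 0. An exact 0 in this table can be a failed estimate and is not read here as absence of the transcript, for HSP17.4 or for other genes listed at 0. AT1G53540, a class I member, had 0 and 0.0888 FPKM in mock, from 0 and 2 reads, and 24.2 and 22.2 FPKM after heat (4.53 ± 0.12, adjusted p = 5.7e-11). AT1G07400 went from 0.977 and 0.606 to 14.6 and 16.9 FPKM (3.23 ± 0.17, adjusted p = 3.0e-08), and HSP17.6A from 0.272 and 0.181 to 8.23 and 9.14 FPKM (2.98 ± 0.19, adjusted p = 1.1e-07). The groups were far apart in each, although the heat levels stayed below 25 FPKM. HSP21, the plastid member, had 0 reads in mock and 1.67 and 1.62 FPKM after heat, at least 26.9-fold higher against the same floor (adjusted p = 8.1e-06).

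The promoter stretches of AT1G53540 and HSP21 are shown because, of the 8 measured small heat shock genes, they and AT1G52560 are the ones with a match to GAANNTTC, a pair of facing heat shock element units, within the 250 bases before the annotated start. The sequences are from the RefSeq TAIR10.1 assembly, run 5′ to 3′ up to the base before the start, and carry the match in capitals; AT1G53540 lies on the plus strand at chr1:19980199-19980298 and HSP21 on the minus strand at chr4:13819972-13820171.
AT1G53540: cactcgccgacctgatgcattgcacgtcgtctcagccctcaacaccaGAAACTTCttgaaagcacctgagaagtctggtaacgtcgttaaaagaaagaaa
HSP21: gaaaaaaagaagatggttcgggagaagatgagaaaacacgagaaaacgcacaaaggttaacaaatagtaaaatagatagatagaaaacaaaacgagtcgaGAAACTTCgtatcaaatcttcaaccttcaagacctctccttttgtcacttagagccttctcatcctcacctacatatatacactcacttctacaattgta
A match of this form was in 11.2% of 169 promoters of genes that rose at least 4-fold, in 11.2% of 143 promoters of genes that fell at least 2-fold, in 9.43% of 16367 tested promoters and in 9.55% of all 27443, so its share was near the background in every class.

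Larger chaperones and the factors that control them changed less evenly. Of 11 measured heat shock factors 4 were called higher and 1 lower (median 0.256), the lower count being 0 without mock replicate 1 or heat replicate 2. HSFA2, known to sustain heat-induced transcription, went from 1.04 and 0.758 to 4.21 and 4.03 FPKM (1.44 ± 0.13, adjusted p = 3.4e-06), and HSF4, a class B factor gene, from 9.83 and 10.5 to 40.1 and 39.1 FPKM (1.86 ± 0.06, adjusted p = 5.1e-10). Of 18 HSP70, HSP90 and HSP100 genes 7 were higher and 1 lower (median 0.128; 4 lower with quantile scaling, 2 without mock replicate 1), with Hsp70b from 1.90 and 2.82 to 10.4 and 11.2 FPKM (1.82 ± 0.14, adjusted p = 7.0e-07) and HSP90.1 from 8.58 and 9.65 to 18.1 and 16.9 FPKM (0.87 ± 0.08, adjusted p = 3.9e-06). HSP101, which pulls apart protein aggregates, was at 1.90 and 2.02 FPKM in mock and 4.36 and 4.84 FPKM after heat. Of 16 heat memory and co-chaperone genes 11 were higher and 0 lower (median 0.697), among them the galactinol synthase gene GolS1 (1.58 ± 0.09) and the co-chaperone gene BAG6 (1.18 ± 0.17).

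In the endoplasmic reticulum, where secreted proteins fold, 17 of 26 genes were called higher and 1 lower (median 0.384), with 0 changed at least 2-fold; the lower count was 0 without mock replicate 1 or heat replicate 2. The HSP70 gene BIP2 went from 21.3 and 29.6 to 45.2 and 48.3 FPKM (0.87 ± 0.12, adjusted p = 1.4e-04), and PDIL1-1, a protein disulphide isomerase gene, from 60.8 and 68.9 to 110.2 and 107 FPKM (0.73 ± 0.06, adjusted p = 1.4e-06). BIP3, the most stress-inducible of the BiP genes, was at 2.104 and 2.81 FPKM in mock and 3.47 and 3.42 FPKM after heat and did not pass (0.37 ± 0.14, adjusted p = 0.057), but passed without mock replicate 2 (0.52, adjusted p = 0.027).

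Defence proteins rose far, with a list median close to that of the cytosolic small heat shock proteins under the main settings. In this order the 2 medians were 2.22 and 3.11 with no filter on low values. They were 3.43 and 4.47 with a pseudocount of 0.1 FPKM. Of 23 measured pathogenesis-related and antifungal proteins, out of 30 in the table, 19 were called higher, each at least 2-fold, and 3 lower (median 3.21), while the lipid transfer protein gene LP1 did not pass. TI1, which encodes a defensin-like trypsin inhibitor, went from 4.35 and 4.94 to 232 and 235 FPKM (5.38 ± 0.07, adjusted p = 1.6e-13). OSM34, an osmotin gene, went from 0 and 0.0357 to 16.2 and 17.36 FPKM, and the chitinase gene CHI (AT2G43570) from 9.78 and 11.2 to 142 and 148 FPKM (3.67 ± 0.06). The 5 plant defensin genes of the PDF1 group in the list were called higher, PDF1.3 from 0.515 and 1.55 to 74.2 and 63.8 FPKM and PDF1.2b from 4.39 and 5.52 to 59.2 and 49.2 FPKM among them, although near-identical copies such as PDF1.2, PDF1.2b and PDF1.2c share reads and their single values are uncertain. BGL2 (PR2), a beta-1,3-glucanase gene, went from 67.9 and 74.3 to 335 and 355 FPKM (2.26 ± 0.05). THI2.2, a thionin gene, moved the other way, from 18.1 and 18.3 to 6.31 and 7.09 FPKM (-1.32 ± 0.10), and the defensin-like genes LCR69 (-0.36 ± 0.08) and LCR68 (-0.27 ± 0.06) also fell.

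A list of defence signal genes had a smaller median change than the list of these proteins. Of 25 measured genes of salicylic acid synthesis and of pipecolic acid, the signals of local and systemic resistance, 15 were called higher and 0 lower (median 0.342). CBP60G, a transcription factor gene of this pathway, was at 12.2 and 12.4 FPKM in mock and 30.2 and 31.7 FPKM after heat (1.27 ± 0.07, adjusted p = 3.0e-08), and its relative SARD1 at 10.3 and 12.7 FPKM in mock and 18.0 and 19.5 FPKM after heat (0.67 ± 0.09, adjusted p = 6.9e-05). EDS16 (ICS1), the isochorismate synthase gene, went from 11.03 and 11.6 to 17.59 and 18.7 FPKM (0.63 ± 0.07, adjusted p = 1.8e-05). FMO1, whose enzyme makes N-hydroxypipecolic acid, went from 0.646 and 0.710 to 2.32 and 2.25 FPKM (0.97 ± 0.13, adjusted p = 6.4e-05), whereas ALD1, the gene of the first step towards pipecolic acid, was at 3.18 and 2.90 FPKM in mock and 3.82 and 3.50 FPKM after heat and did not pass (adjusted p = 0.15). AT4G10500, a salicylic acid hydroxylase gene, had the largest change of the list, from 3.38 and 4.89 to 20.4 and 21.6 FPKM (2.11 ± 0.12, adjusted p = 5.4e-08). The heat libraries were above the mock libraries in all 6, also in ALD1, which was not called. Lack of overlap, in either direction, was found in 68.9% of tested genes.

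Of 44 measured WRKY transcription factor genes, many of which act in defence, 31 were called higher and 1 lower (median 0.457; 2 lower without heat replicate 1 or with quantile scaling). WRKY60 went from 2.48 and 2.42 to 27.7 and 25.1 FPKM (2.99 ± 0.12, adjusted p = 2.0e-09), WRKY75 from 0.493 and 0.247 to 7.81 and 9.53 FPKM and WRKY8 from 1.60 and 1.34 to 13.8 and 13.3 FPKM. Cysteine-rich receptor-like kinases were higher in 21 and lower in 3 of 31 genes (median 0.382), led by CRK13 (1.85 ± 0.11). Components of the response to microbial patterns were higher in 15 and lower in 2 of 35 genes (median 0.145; 12 and 6 with quantile scaling), with FRK1, a receptor kinase gene used as a marker of that response, going from 0.710 and 1.201 to 6.82 and 5.95 FPKM (1.93 ± 0.15, adjusted p = 8.3e-07). Helper NLR and resistance signalling genes had 8 members higher and 2 lower out of 23 (median 0.142), with 5 higher without mock replicate 1 and 1 lower without mock replicate 2 or heat replicate 2. ADR1, a helper NLR gene, rose from 4.47 and 4.84 to 10.7 and 10.8 FPKM (1.06 ± 0.08). In the jasmonate and ethylene branch 19 of 34 genes were higher and 7 lower (median 0.293), and its factor gene ORA59 went from 6.21 and 4.97 to 12.9 and 12.8 FPKM (1.07 ± 0.09, adjusted p = 1.9e-06). MYC2, another factor of jasmonate signalling, was listed at 0 in all 4 libraries, which can be a failed estimate.

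The promoters of 4 of the risen genes are shown because each holds at least 2 W boxes, the sequence TTGACC or TTGACT that WRKY factors bind, on either strand and without overlap. Each runs 5′ to 3′ over 250 bases up to the base before the annotated start in RefSeq TAIR10.1, with W boxes in capitals. TI1 lies on the plus strand at chr2:18066710-18066959, and PDF1.4, a defensin gene, on the minus strand at chr1:6782217-6782466. LDOX, of anthocyanin synthesis, lies on the minus strand at chr4:12006210-12006459, and CYP76C2, a cytochrome P450 gene, on the minus strand at chr2:18781974-18782223.
TI1: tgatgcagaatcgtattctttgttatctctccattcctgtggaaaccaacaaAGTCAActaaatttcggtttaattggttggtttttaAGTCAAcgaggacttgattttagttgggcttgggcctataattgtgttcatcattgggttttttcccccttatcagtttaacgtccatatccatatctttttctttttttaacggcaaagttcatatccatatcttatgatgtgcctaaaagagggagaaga
PDF1.4: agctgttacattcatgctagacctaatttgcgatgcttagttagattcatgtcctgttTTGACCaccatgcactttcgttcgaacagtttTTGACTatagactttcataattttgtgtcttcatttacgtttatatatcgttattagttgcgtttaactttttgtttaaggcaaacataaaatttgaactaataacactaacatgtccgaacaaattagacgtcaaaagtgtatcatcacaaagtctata
LDOX: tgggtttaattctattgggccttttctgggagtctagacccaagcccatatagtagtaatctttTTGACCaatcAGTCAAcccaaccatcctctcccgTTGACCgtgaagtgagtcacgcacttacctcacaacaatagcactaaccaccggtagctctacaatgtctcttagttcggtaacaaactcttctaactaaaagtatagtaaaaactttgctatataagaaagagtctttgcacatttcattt
CYP76C2: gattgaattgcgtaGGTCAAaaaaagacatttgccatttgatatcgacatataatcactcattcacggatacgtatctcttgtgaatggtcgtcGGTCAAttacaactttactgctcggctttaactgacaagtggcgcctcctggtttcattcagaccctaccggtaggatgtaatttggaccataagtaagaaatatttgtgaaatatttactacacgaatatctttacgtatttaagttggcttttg
A W box was present in 70 of 169 promoters of genes that rose at least 4-fold (41.4%), in 39 of 143 of genes that fell at least 2-fold (27.3%), in 28.2% of tested promoters and in 28.4% of all. At least 2 were present in 14 of the 169 (8.28%) and in 6.13% of tested promoters. The G box CACGTG was in 9.47% of risen, 9.09% of fallen and 7.51% of tested promoters. The evening element AAAATATCT was in 3.55%, 2.098% and 2.73%, and TGACGTCA in 0.592%, 0% and 0.574%, in the same order. These shares are descriptions; no test was made on them.

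The tryptophan-derived defence pathway rose along most of its length. Tryptophan synthesis was higher in 7 and lower in 0 of 9 genes (median 0.711), with the tryptophan synthase gene TSA1 going from 46.1 and 46.3 to 86.4 and 86.2 FPKM (0.89 ± 0.04, adjusted p = 1.7e-08) and the anthranilate synthase gene ASA1 from 20.5 and 19.8 to 37.7 and 35.2 FPKM. Indole glucosinolate and camalexin synthesis was higher in 14 and lower in 1 of 19 genes (median 0.435). CYP79B2, which makes the shared precursor of both, went from 39.7 and 44.5 to 63.5 and 64.0 FPKM (0.59 ± 0.07, adjusted p = 1.7e-05). CYP71A12, which acts on that precursor, went from 2.08 and 2.12 to 75.3 and 69.6 FPKM (4.56 ± 0.10, adjusted p = 1.0e-11). CYP71A13, of the same cytochrome P450 family, went from 0.748 and 1.04 to 8.31 and 6.69 FPKM (2.16 ± 0.14). PAD3, the gene of the last step to camalexin, went from 4.79 and 5.76 to 42.9 and 44.0 FPKM (2.83 ± 0.09, adjusted p = 3.8e-10). CYP71A12, CYP71A13 and PAD3 each had larger log2 changes than CYP79B2. The heat and mock libraries were apart in each of these genes, as was so in 68.9% of tested genes.

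Aliphatic glucosinolate synthesis was higher in 16 and lower in 2 of 27 genes (median 0.191), the lower count being 0 without mock replicate 1 or heat replicate 2, but its regulator MYB28 was at 66.8 and 66.7 FPKM in mock and 66.5 and 67.8 FPKM after heat (0.00864 ± 0.0488, adjusted p = 0.91). Myrosinases, which split glucosinolates when tissue is damaged, were among the strongest falls of abundant genes. TGG1 went from 1048 and 1051 to 405 and 365 FPKM (-1.45 ± 0.05, adjusted p = 5.2e-10) and TGG2 from 275 and 266 to 74.9 and 65.9 FPKM (-1.93 ± 0.06, adjusted p = 4.3e-10). The nitrile-specifier gene NSP5 rose from 30.6 and 30.2 to 87.7 and 94.96 FPKM (1.55 ± 0.06, adjusted p = 1.0e-09), as did the nitrilase gene NIT4, from 9.77 and 9.89 to 18.0 and 17.7 FPKM. In the whole list of glucosinolate breakdown 9 of 13 genes were higher and 3 lower (median 0.277).

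**Figure D4:**
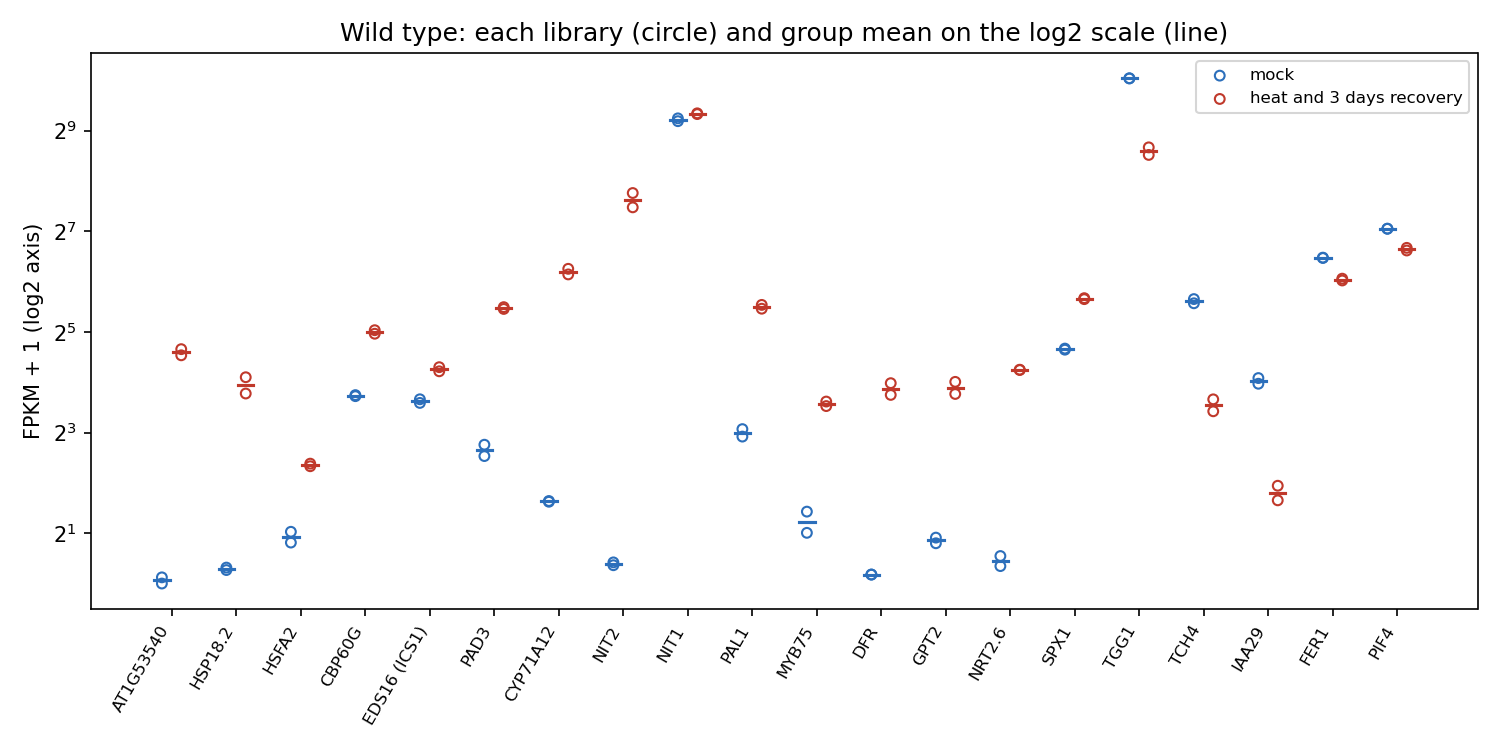
FPKM + 1 on a log2 axis for 20 genes, with circles for the wild-type libraries (blue mock, red heat and recovery) and lines for the group means on the log2 scale. The groups do not overlap in any of the 20, as is so in 68.9% of tested genes. NIT2 and CYP71A12 lie farther apart than NIT1 and PIF4.

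Phenylpropanoid and lignin synthesis was higher in 15 and lower in 3 of 25 genes (median 0.465). PAL1, the entry enzyme gene, went from 6.57 and 7.39 to 45.4 and 43.0 FPKM (2.504 ± 0.08, adjusted p = 3.2e-10) and C4H, of the second step, from 21.6 and 22.8 to 91.6 and 89.09 FPKM (1.98 ± 0.06, adjusted p = 9.4e-11). Both genes rose about as much in either heat library. Of 9 measured anthocyanin genes, out of 15 in the table, 7 were higher and 2 lower (median 2.11). With no filter on low values the median of this list was 0.274. MYB75 (AT1G56650), the activator of the pathway, went from 1.69 and 1.01 to 10.5 and 11.3 FPKM (2.35 ± 0.14, adjusted p = 8.8e-08), while its relative MYB90 stayed at or below 0.0566 FPKM. LDOX went from 0.153 and 0.0922 to 9.46 and 9.37 FPKM and GSTF12, needed to carry the pigment to the vacuole, from 0.0364 and 0.0365 to 14.7 and 12.4 FPKM. The members that fell were MYBL2, a repressor of the pathway (-0.46 ± 0.05), and CPC (-0.58 ± 0.19); without each of the 4 wild-type libraries in turn the lower count was 1. Of the early flavonoid genes 5 of 6 measured were higher, with CHIL from 0.161 and 0.258 to 1.32 and 1.74 FPKM (1.06 ± 0.15), and F3H was listed at 0, which can be a failed estimate.

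Genes for glutathione S-transferases and for the mitochondrial retrograde response were mostly higher. Phi glutathione S-transferases were higher in 6 and lower in 1 of 7 genes (median 0.743). GSTF6 went from 76.1 and 84.1 to 374 and 348 FPKM (2.16 ± 0.05, limma adjusted p = 3.9e-11). The tau class was higher in 9 and lower in 1 of 15 (median 0.215). GSTU4 went from 4.82 and 5.30 to 32.9 and 30.4 FPKM (2.43 ± 0.08, limma adjusted p = 4.3e-10). Genes of the mitochondrial retrograde response were higher in 12 and lower in 2 of 15 (median 0.444), the lower count being 1 without mock replicate 1 or heat replicate 2. The alternative oxidase gene AOX1D went from 0.446 and 0.419 to 11.4 and 10.7 FPKM (3.07 ± 0.12, adjusted p = 1.4e-09). AOX1A, the more abundant alternative oxidase gene and the usual marker, went from 48.9 and 46.4 to 43.6 and 40.2 FPKM (-0.18 ± 0.06, adjusted p = 0.029), a call lost without mock replicate 1 (-0.14, adjusted p = 0.16) or heat replicate 2 (-0.12, adjusted p = 0.22). Antioxidant enzymes were mixed, with 12 higher and 10 lower of 33 (median 0.0577).

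Genes that plants use when short of nutrients were raised in several pathways. The phosphate starvation list was higher in 22 and lower in 1 of 30 genes (median 0.496; 0 lower without mock replicate 1 or heat replicate 1). PHT1;4, a phosphate transporter gene, went from 1.82 and 1.98 to 17.1 and 15.5 FPKM (2.58 ± 0.12, adjusted p = 1.2e-08), PAP17, an acid phosphatase gene, from 11.1 and 10.5 to 45.6 and 46.1 FPKM and SPX1, a phosphate sensor gene, from 24.0 and 24.4 to 49.9 and 49.2 FPKM (1.003 ± 0.07, adjusted p = 4.2e-07). The sulphur list was higher in 21 and lower in 0 of 27 genes (median 0.354), with LSU1, a marker of low sulphur, at 1.67 ± 0.14. Nitrogen transport and assimilation was higher in 21 and lower in 4 of 36 genes (median 0.206); without mock replicate 2 or heat replicate 1 the number lower was 2. NRT2.6, a nitrate transporter gene, went from 0.271 and 0.460 to 18.0 and 17.9 FPKM (3.80 ± 0.12, adjusted p = 3.5e-10), and the nitrate reductase gene NIA1 rose by 1.57 ± 0.09. Iron genes were mixed, with 12 higher and 6 lower of 26. The ferritin genes FER1, from 87.5 and 87.9 to 63.9 and 65.6 FPKM (-0.43 ± 0.04, adjusted p = 8.0e-06), and FER4 (-0.75 ± 0.07) fell. The iron deficiency regulator gene bHLH38 went from 0.553 and 0.814 to 1.299 and 1.73 FPKM (0.58 ± 0.14, adjusted p = 0.0063), a call lost without mock replicate 1 (0.47, adjusted p = 0.067) or heat replicate 2 (0.45, adjusted p = 0.060).

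In carbon metabolism the lists differed, and single genes of starch and sugar metabolism rose far. Starch genes had 8 members higher and 8 lower out of 34 (median -0.0367), and higher in 5 without heat replicate 2. AMY1, an alpha-amylase gene, went from 0.920 and 0.772 to 43.1 and 45.8 FPKM (4.62 ± 0.12, adjusted p = 4.8e-11) and BAM5, a beta-amylase gene, from 1.23 and 1.14 to 23.47 and 19.0 FPKM (3.34 ± 0.14, adjusted p = 3.0e-09). GPT2, which carries glucose 6-phosphate into plastids, went from 0.741 and 0.882 to 15.1 and 12.6 FPKM (3.03 ± 0.12, adjusted p = 1.8e-09). Sugar transport and cleavage was higher in 15 and lower in 6 of 29 genes, and lower in 3 without mock replicate 2 or heat replicate 2. Beta-oxidation and glyoxylate genes had 15 members higher and 2 lower out of 22 (median 0.234), with 0 at least 2-fold; the lower count was 0 without mock replicate 1, heat replicate 1 or heat replicate 2. Of the dark-inducible and branched-chain amino acid genes 10 of 22 were higher and 3 lower (median 0.182). The lower count was smaller when any wild-type library was left out. The beta-glucosidase gene DIN2 of this list went from 0.0182 and 0.0546 to 17.5 and 19.1 FPKM.

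Auxin response and brassinosteroid genes were mostly lower, while gibberellin genes split, with 6 higher and 7 lower of 18. Of 43 measured auxin response genes 29 were called lower, 12 of them at least 2-fold, and 3 higher (median -0.67). IAA29 went from 15.9 and 14.7 to 2.15 and 2.84 FPKM (-2.23 ± 0.13, adjusted p = 5.8e-08), SHY2, another Aux/IAA repressor gene, from 17.0 and 15.5 to 3.46 and 4.33 FPKM (-1.82 ± 0.13, adjusted p = 4.4e-07), and SAUR20, of a family that promotes cell expansion, from 25.1 and 24.6 to 8.31 and 7.06 FPKM (-1.58 ± 0.10, adjusted p = 1.1e-07). Mock and heat libraries did not overlap in any of these, as was so in 68.9% of tested genes. Brassinosteroid genes had 15 members lower and 2 higher out of 26 (median -0.34). The synthesis genes DWF4, from 9.72 and 9.58 to 3.49 and 3.31 FPKM (-1.28 ± 0.09, adjusted p = 4.4e-07), and CPD, from 219 and 206 to 109 and 103 FPKM (-0.998 ± 0.05, adjusted p = 1.8e-08), fell, and so did BAS1, which inactivates the hormone (-0.79 ± 0.12). PIF4 and PIL6 (PIF5), the growth-promoting factor genes after which the mutant is named, went from 131 and 131 to 97.2 and 100.8 FPKM (-0.41 ± 0.05, adjusted p = 4.0e-05) and from 63.2 and 66.4 to 54.3 and 54.9 FPKM (-0.24 ± 0.09, adjusted p = 0.045). The PIL6 call was lost without each of the 4 wild-type libraries in turn (adjusted p from 0.089 to 0.18).

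Cell wall genes changed in both directions. Xyloglucan endotransglucosylases, which loosen walls, were lower in 6 and higher in 4 of 18 genes. TCH4 fell from 49.3 and 46.4 to 9.72 and 11.6 FPKM (-2.07 ± 0.09, adjusted p = 7.0e-09) and XTH6 from 89.4 and 81.5 to 25.4 and 22.5 FPKM (-1.79 ± 0.07, adjusted p = 1.0e-09), whereas XTR6 rose from 1.42 and 1.25 to 7.78 and 7.19 FPKM (1.86 ± 0.12, adjusted p = 1.1e-07). Expansins were lower in 6 and higher in 4 of 16, with EXLA1 at -1.50 ± 0.07 and EXPA1, an abundant expansin gene of these leaves, going from 120.4 and 117 to 255 and 256 FPKM (1.103 ± 0.04, adjusted p = 9.4e-10). Cellulose synthases and relatives were lower in 13 and higher in 4 of 26 (median -0.28), among the risen ones CSLG2, from 0.0885 and 0.142 to 20.8 and 20.9 FPKM. Cuticle and wax genes had 21 members lower and 3 higher out of 31 (median -0.31), with the wax regulator gene MYB96 going from 24.6 and 25.1 to 8.90 and 8.88 FPKM (-1.39 ± 0.08, adjusted p = 6.3e-08). Aquaporins were higher in 9 and lower in 7 of 21, and pectin-modifying enzymes were higher in 3 and lower in 2 of 10.

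Dehydration and cold genes split, with 15 of 27 lower and 10 higher (median -0.25). RD20, a caleosin gene of dehydrated leaves, rose from 20.3 and 18.7 to 86.1 and 99.9 FPKM (2.19 ± 0.08, adjusted p = 1.2e-09), and the cold regulator gene CBF2 fell from 12.5 and 14.04 to 4.46 and 4.78 FPKM (-1.34 ± 0.11, adjusted p = 1.3e-06). Among transcription factor families, NAC genes had 29 members higher and 1 lower out of 46 (median 0.353; 3 lower without heat replicate 1, 0 without mock replicate 2 or heat replicate 2), with NAC003 from 1.28 and 1.08 to 9.87 and 8.89 FPKM, and B-box genes had 10 members lower and 3 higher out of 23 (median -0.14). Ethylene response factors were lower in 16 and higher in 13 of 42. Of the calmodulin-like genes 4 of 16 were higher and 4 lower; without mock replicate 1, heat replicate 1 or heat replicate 2 the number lower was 2. CML41 rose from 12.2 and 11.6 to 107 and 122 FPKM (3.16 ± 0.06, adjusted p = 7.6e-12) and TCH2, induced by touch, fell from 27.2 and 27.9 to 11.7 and 11.4 FPKM (-1.19 ± 0.07, adjusted p = 4.8e-08). ELIP1, a gene for a light stress protein, had 0.0771 and 0 FPKM in mock and 1.86 and 2.52 FPKM after heat.

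Genes of protein turnover, translation and chromatin had few large changes. Of 21 measured 26S proteasome genes 1 was higher and 1 lower (median 0.0294), and both counts were 0 without mock replicate 2 or heat replicate 1. Of 279 genes described as ribosomal proteins with no organelle named, 48 were lower and 21 higher (median -0.0426), with 0 changed at least 2-fold. The number lower was 29 without mock replicate 1, 30 without heat replicate 1 and 70 with quantile scaling, and the number higher 10 without heat replicate 2 or with quantile scaling and 13 without heat replicate 1. Plastid ribosomal proteins had 4 members lower out of 5. Histone genes had 7 members lower and 1 higher out of 18 (median -0.10), the risen one being the linker histone gene HIS1-3 (0.61 ± 0.06); 2 were higher without mock replicate 1.

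**Figure D5:**
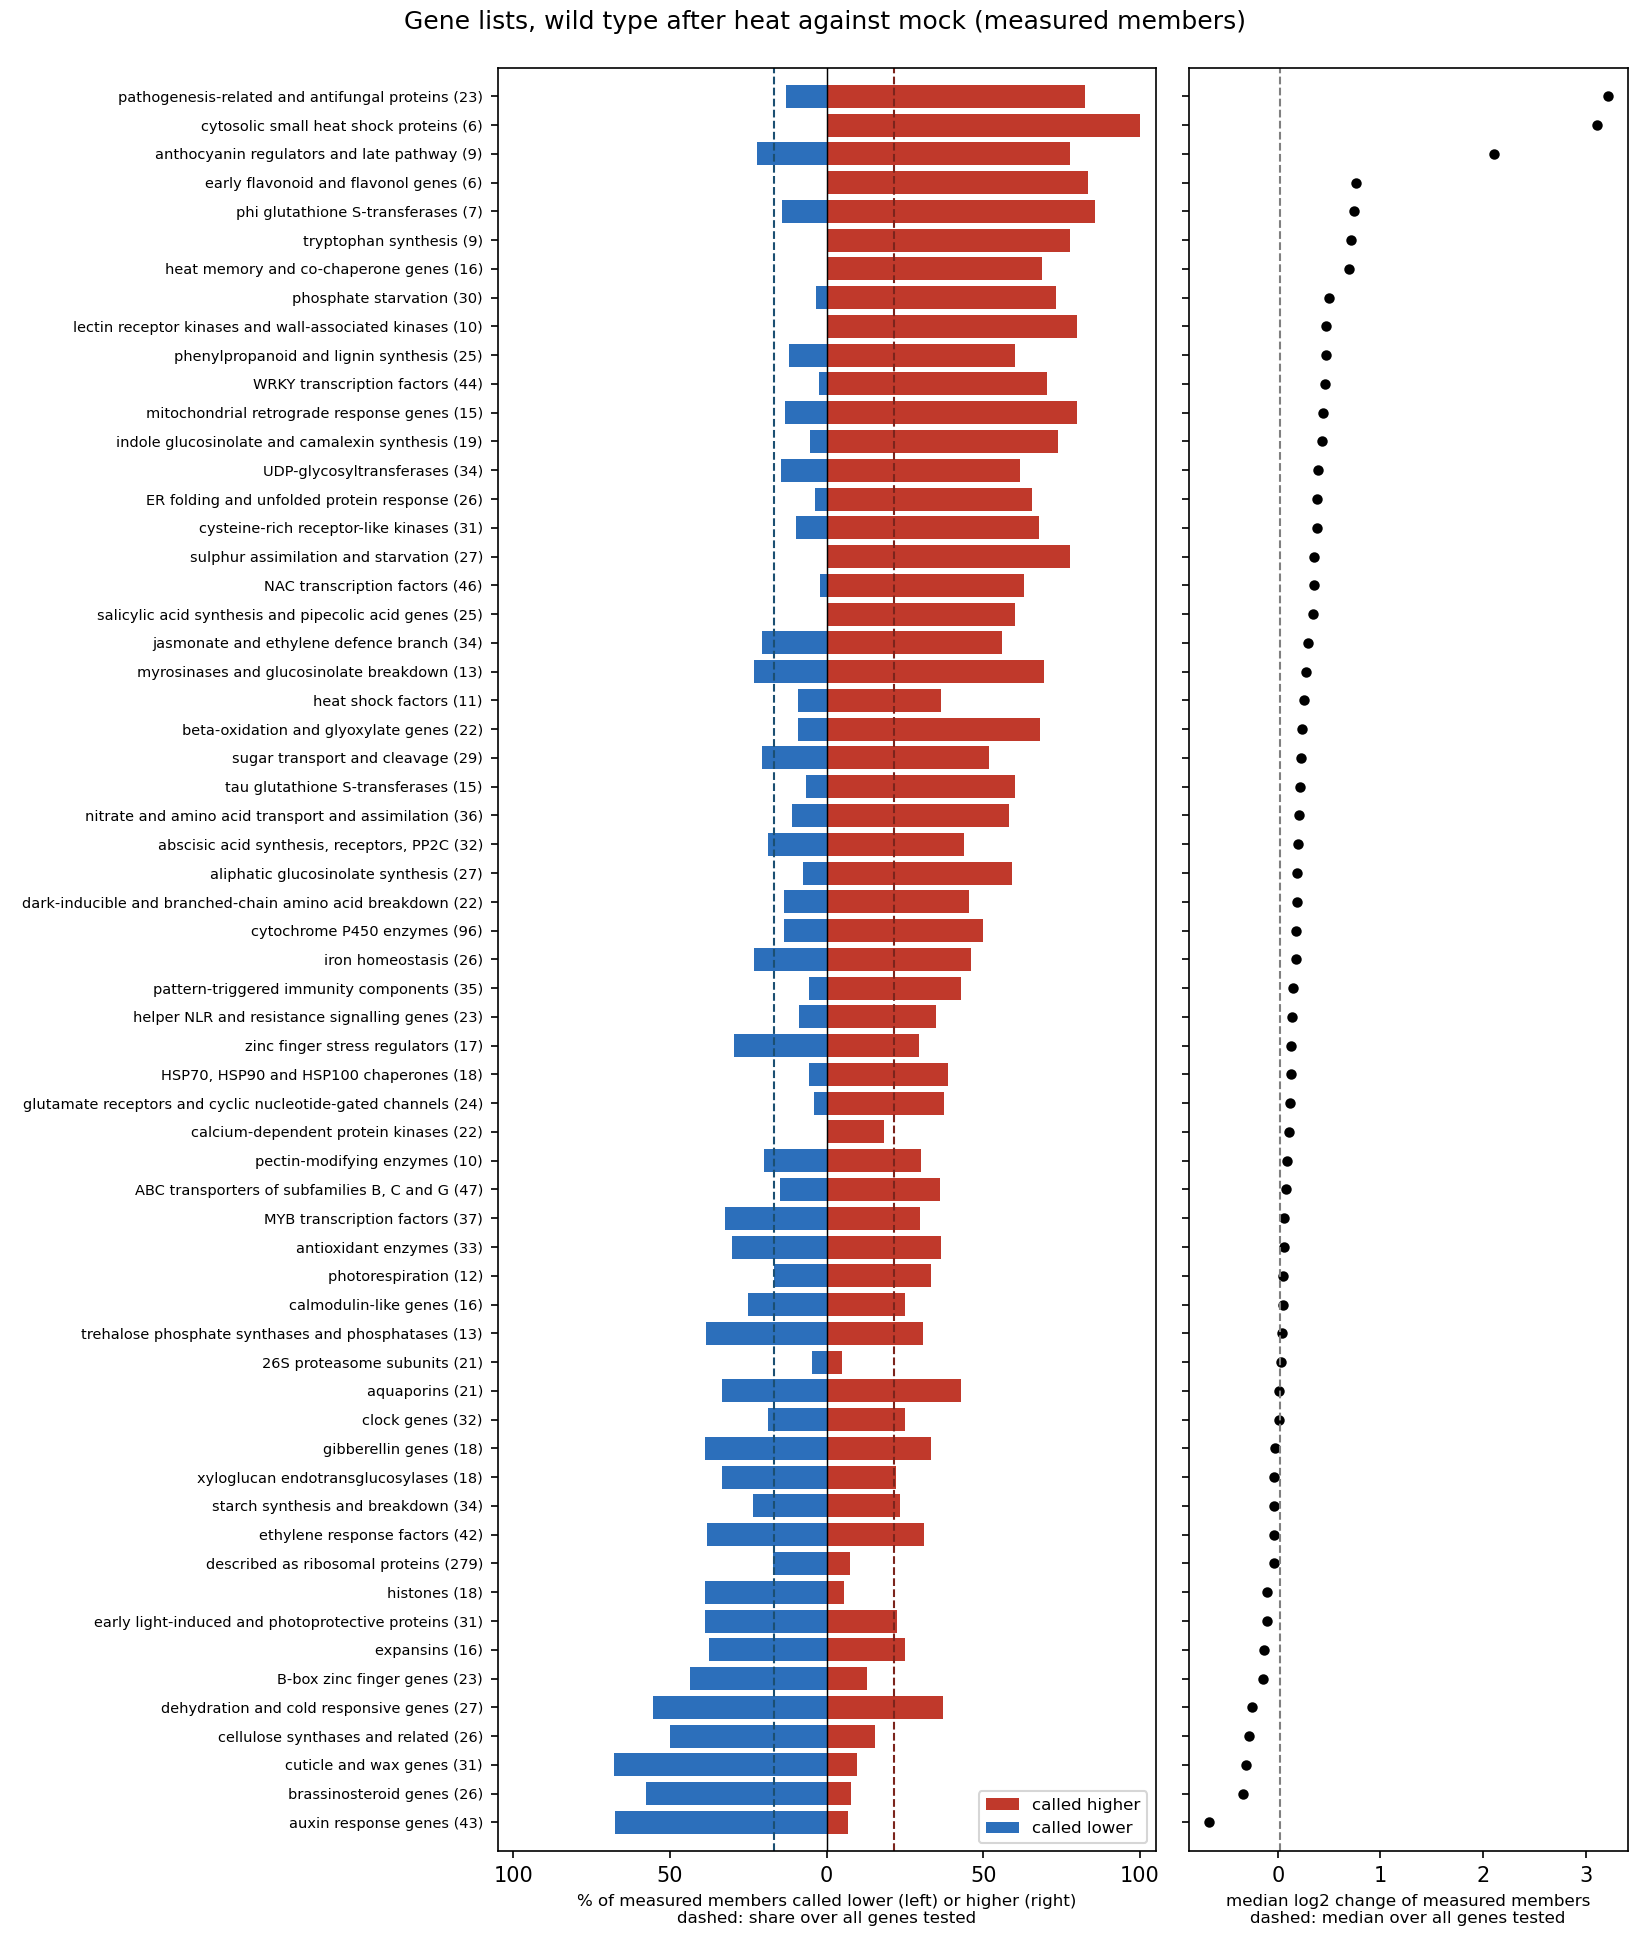
For each gene list other than cell type markers with at least 6 measured members (number in brackets), bars give the percentage called lower (blue, to the left) or higher (red, to the right) and points the median log2 change; dashed lines mark the shares (16.9% and 21.5%) and the median (0.0200) over all tested genes. Pathogenesis-related proteins (3.21) and cytosolic small heat shock proteins (3.11) have the 2 highest medians here, in an order that turns without mock replicate 1 or heat replicate 1, with no filter, with a pseudocount of 0.1 FPKM and with limma-voom; auxin response genes are at -0.67.

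Neighbouring genes that rose together were looked for among annotated protein-coding genes that rose at least 4-fold. There were 11 runs of at least 2 adjacent genes, with 24 of the 169 genes in them, and 0 runs of genes that fell as far; at 2-fold there were 46 and 8. The longest run, on chromosome 4, held 4 genes of 1 protein family: AZI1, known for its part in systemic resistance, EARLI1, AT4G12490 and AT4G12500. AZI1 went from 5.22 and 5.97 to 35.2 and 33.9 FPKM, AT4G12490 from 1.27 and 1.83 to 126 FPKM in both heat libraries, and AT4G12500 from 0.372 and 0.497 to 19.2 and 18.4 FPKM. Log2 changes in that run ranged from 2.43 to 5.94. Other pairs were PDF1.2 with PDF1.2c and LTP4 with LTP3 on chromosome 5, and PDF1.3 with PDF1.2b on chromosome 2. PAD3 with the esterase gene PES2 on chromosome 3 was a pair of genes whose descriptions differ. In the pairs of related genes shared reads make the values of single members uncertain.

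The same treatment in the mutant gave smaller changes in the genes that moved most in the wild type. NIT2 was at 0.610 FPKM in mutant mock and 1.27 FPKM after heat, a difference between the heat changes of -6.72 ± 0.16 on the log2 scale (adjusted p = 2.2e-10). The difference was -4.12 for CYP71A12 (adjusted p = 2.1e-09), -3.08 for AT1G53540 (adjusted p = 1.2e-07) and -2.05 for PAL1 (adjusted p = 1.2e-07). It was -0.0205 for PIF4 (limma adjusted p = 0.85). PIF4 is itself mutated in pif4-2 pif5-3, so its value there is that of a mutated gene. Among all tested genes this difference passed in 5371, or 31.9%. Among the 172 genes that rose at least 4-fold in the wild type it passed in 171, with a median log2 change of 2.698 in Col-0 and 0.236 in pif4-2 pif5-3. Among the 155 that fell at least 2-fold it passed in 146, with medians of -1.19 and -0.14, in the same order. These genes were chosen by their wild-type change, which enters the difference, so both counts are descriptions.

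Markers of other cells were read in the same libraries. Root markers were mostly absent, with 4 of 20 passing the filter and summed levels of 23.45 to 23.52 FPKM in mock and 27.2 to 29.0 FPKM after heat. Meristem and flower markers passed in 5 of 19, with sums of 99.99 to 104.7 FPKM in mock and 92.7 to 94.0 FPKM after heat. Guard cell markers passed in 8 of 15, with sums of 35.5 to 37.8 FPKM in mock and 37.1 to 37.7 FPKM after heat. Vascular markers, of which 17 of 19 passed, summed to 944 to 953 FPKM in mock and 1020 to 1024 FPKM after heat, with 9 lower and 3 higher; without mock replicate 2 the number lower was 5. Epidermis and trichome markers passed in 7 of 16 and were lower in 5, with sums of 161 to 162 FPKM in mock and 114 to 120.0 FPKM after heat; the number lower was 3 without mock replicate 1 or heat replicate 2. ATML1, the epidermal identity gene, went from 19.9 and 20.4 to 10.95 and 9.99 FPKM (-0.89 ± 0.07, adjusted p = 1.2e-06). These lower epidermal markers stood beside lower cuticle, wax and myrosinase genes, and their part in those changes was not tested. In whole leaves, fewer cells of a type and less RNA per cell cannot be told apart.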

How the data were processed

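Total RNA of rosette leaves was sequenced in 8 libraries, 2 biological replicates per group. The authors deposited 1 table of FPKM; TopHat, TopHat2, edgeR and TAIR10 are named in the submitters' processing notes, while the counting program, its strand setting and the FPKM program are not given there. Overlapping and antisense genes therefore cannot be told apart. Symbols, lengths, neighbours and promoter sequence came from RefSeq TAIR10.1 (32548 of 34354 identifiers matched). The smallest FPKM steps were read as single reads, and 100% of the 23543 rows above 0 came out whole (within 0.01 of a whole number); for 10591 of them the length was searched.

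A count model does not suit FPKM. Values were therefore taken as log2(FPKM + 1) and compared by limma 3.58.1 (R 4.3.3), with group means over 8 libraries (4 residual degrees of freedom), an intensity trend and Benjamini-Hochberg adjustment. Values given as ± are SE (n = 2 per group) unless stated. Named are up to 4 called members per list with the largest change and at least 5 FPKM, the 20 largest changes each way, a set of key genes and genes of runs and silent classes; RBCS1A, CAB3, OSM34, CHI, BGL2, CHIL, NIT3, NIT4, PRXCB, AT3G16670, members of counts of 5 or fewer and members of the longest run were added after their values were seen. The members and the 69 lists were chosen with earlier results of these data known. The fit was also run on simulated reads with the same spread in every group and no length effect. The mock replicates stood apart in long genes, so that run does not bear on the calls given here. The p-values set a difference between groups against a spread estimated from all 8 libraries, 2 per group, and shared across genes. Figures used matplotlib 3.10.9.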

Additional observations from a re-analysis of the deposited data

Results flagged for a closer look

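Among 301 named and tested genes the heat change differed between genotypes in 270 at a limma adjusted p below 0.05. Most of these genes were chosen by their wild-type change, which enters the difference, so this count is a description and is not set against that of all genes. It was smaller (more negative) in the mutant in 198 and larger in 72. In 31 of them the wild-type and the mutant change were both called, in opposite directions, and these are given with the mutant change minus the wild-type change on the log2 scale. Col-0 fell and pif4-2 pif5-3 rose in PHI-1 (3.74), TCH4 (3.25), DREB26 (2.65), DIC2 (2.06), SAUR22 (2.06), TCH2 (1.90), MYB77 (1.81) and THI2.2 (1.71), and also CBF2 (1.69), ORA47 (1.62), CML23 (1.60), ESE3 (1.54), STZ (1.39), MYBL2 (0.70), CAB3 (0.62) and AGL20 (0.36). The largest of these was the EXORDIUM family gene: PHI-1 changed by -2.06 in Col-0 and 1.68 in pif4-2 pif5-3. Next came the xyloglucan endotransglucosylase gene: TCH4 changed by -2.07 in Col-0 and 1.18 in pif4-2 pif5-3. Col-0 rose and pif4-2 pif5-3 fell in AOX1D (-3.52), YLS9 (-3.44), ABCG40 (-2.55), FMO1 (-1.49), ORA59 (-1.37), IMS2 (-1.20), HPT1 (-1.19) and UGT73B5 (-1.12), and also PYK10 (-1.01), HAB1 (-0.97), LecRK-I.9 (-0.88), MFP2 (-0.86), PMEPCRA (-0.56), CPK6 (-0.49) and CPK23 (-0.47). The alternative oxidase gene led this group: AOX1D changed by 3.07 in Col-0 and -0.45 in pif4-2 pif5-3. FMO1 and ORA59, of the pipecolic acid and the jasmonate and ethylene branches, are in it. The wild-type call was lost without each of the 4 wild-type libraries in turn for CPK23 (limma adjusted p from 0.054 to 0.074), without mock replicate 1 or either heat replicate for AGL20, without either mock replicate or heat replicate 2 for PYK10, and without mock replicate 2 or heat replicate 1 for CPK6.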

How the results depend on the processing

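Of 4198 values of named genes under 14 alternatives, 4110 kept their direction and their side of the threshold, 83 lost the call, 5 gained it and 0 reversed. Leaving out 1 library gave 4758 to 5683 calls against 6468, with 2696 to 3304 higher and 2062 to 2379 lower, and 648 to 697 genes at least 2-fold higher and 147 to 178 lower. Quantile scaling gave 2881 higher and 3829 lower. The higher share of the calls was 52.3% with median-of-ratios scaling and 49.1% without the 100 most abundant genes. A filter of 5 FPKM left 421 genes at least 2-fold higher, since fewer genes were tested. With a pseudocount of 0.1 FPKM 325 genes fell at least 2-fold, of 1250 in all, and with limma-voom on recovered reads 326 of 1274, from 6658 calls; both shrink low values less. Limits of 0.1 and 2 FPKM gave 21 silent genes, and a 2-fold limit 54 runs of neighbours. Of 1932 counts of list members 173 moved by over 1.5 times. The replicate block gave 6725 calls, 3779 higher and 2946 lower; same-numbered replicates did not deviate together in the wild type (r = -0.073 over 11102 genes, which are not independent), so the numbers are not taken to pair the samples. Genes near 1 FPKM rest on few reads, and small changes of such genes were not detectable with 2 libraries a group.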

Other observations

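Several further gene groups were measured. UDP-glycosyltransferases, which attach sugars to hormones and other small molecules, were higher in 21 and lower in 5 of 34 genes (median log2 change 0.389), the lower count being 3 without each of the 4 wild-type libraries in turn. Cytochrome P450 enzymes were higher in 48 and lower in 13 of 96 (median 0.180), the lower count being 7 without mock replicate 2 and 8 without either heat replicate. ABC transporters were higher in 17 and lower in 7 of 47, with 10 higher without mock replicate 1 and 11 lower with quantile scaling. Lectin receptor kinases and wall-associated kinases were higher in 8 and lower in 0 of 10 genes (median 0.471).

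Gibberellin genes had 6 members higher and 7 lower out of 18, and lower in 4 without mock replicate 1 or heat replicate 2. Clock genes had 8 members higher and 6 lower out of 32 (median 0.0120). The higher count was 3 with quantile scaling, and both counts were smaller when any wild-type library was left out. Abscisic acid genes had 14 members higher and 6 lower out of 32 (median 0.197), and glutamate receptors and cyclic nucleotide-gated channels, which pass calcium, had 9 members higher and 1 lower out of 24 (3 lower with quantile scaling).

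The table also holds 92 rows without a gene identifier. Of these 83 were tested, and 15 were called higher and 12 lower.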
